A study of Mus musculus with 12 samples.

Results

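The 45 genes described here encode the proteins that sense and mend DNA double-strand breaks and interstrand crosslinks, 45 of the 49315 gene identifiers in the count tables. They were chosen by gene symbol and sorted by role into recombination (13 genes), the Fanconi pathway and crosslink processing (12), break ends and resection (5), damage signalling (8) and end joining (7). RNA-seq was run on primary mouse adult fibroblasts (MAFs) cultured from ear tissue at low oxygen, from adult females that were wild-type C57BL6/J (WT) or lacked the clock gene Bmal1 (BMAL1 -/-, here KO). Cells of each genotype were sham irradiated (control) or given 20 Gy of X-rays and then held in culture until they were senescent, so that control and senescent cells differ both in exposure and in time after it. All 4 groups then received 100 nM dexamethasone, a glucocorticoid that aligns cellular clocks, and were collected 12 h later, with 3 libraries in each group. The labels do not say whether the libraries of a group came from separate animals or cultures, so the p-values measure the spread between these libraries, which may be technical. Each genotype was deposited as a table of its own, so handling of the table and genotype cannot be told apart when KO and WT levels are compared, whereas a difference shared by all libraries of a table drops out of the comparison of the responses.

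A double-strand break can be rejoined directly or copied from an intact sister chromatid. In end joining, the Ku heterodimer (Xrcc5 and Xrcc6) holds the ends, recruits the kinase DNA-PKcs (Prkdc), and lets ligase IV (Lig4) with Xrcc4 and Nhej1 seal them at any stage of the cell cycle. In homologous recombination the MRN complex (Mre11a, Rad50, Nbn) and the nucleases that follow it trim the ends to single strands, and Brca1, Brca2 and their partners load a recombinase on them. This route needs a replicated chromatid and is used mainly in S and G2 phase. Fanconi proteins mark and unhook crosslinks that stall replication forks and hand the resulting break to recombination. Cellular senescence is a durable exit from the cell cycle, and persistent damage signals are one of its known features.

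The library totals lay between 23923030 and 31736083 assigned reads, and the lowest count of any member in any library was 9, for Rad51b. Exons of Brca2, Fancc, Fancd2, Fanci, Fancl, Eme1, Mre11a, Rbbp8, Atr, Trp53bp1, Xrcc4 and Xrcc6, among the genes given in full, overlap a gene on the opposite strand, and since the use of strand in counting is not stated, reads of the pair cannot be told apart. The same holds for Palb2, Rad54l, Rad54b, Xrcc3, Fanca, Fancm and Mus81 among the other members. The first principal component held 63.8% of the variance and separated control from senescent libraries. Fibroblast markers were present in every library (8 of 8 markers, summed at 6861 to 22830 counts per 1000000 on scaled library totals, CPM), and sums for keratinocyte, macrophage, endothelial, muscle, melanocyte and adipocyte markers were at most 27.0 CPM. The 7 chondrocyte markers were also present, and their sum moved with the groups, from 7291 to 9073 CPM in WT control to 1916 to 2217 in WT senescent libraries and from 4743 to 6566 in KO control to 600 to 696 in KO senescent libraries. The part of these cells in the results below was not tested. In bulk RNA, fewer cells of a type and less RNA per cell cannot be told apart. Reads of Arntl, the gene for Bmal1, were still counted in the KO libraries, at a mean of 13.2 CPM in control and 26.6 in senescent cells, against 31.5 and 36.1 in WT cells, and counts over the whole gene do not show which exons remain.

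To ask which repair transcripts change in senescence, senescent and control cells were compared within each genotype. A gene is said to have passed when its adjusted p from edgeR was under 0.05, and to have passed both limits when its log2 fold change was also over 1 in size. Most of the members were lower in senescent cells, and the fall was deepest among recombination and Fanconi genes and slight among the genes of end joining. In WT cells 38 of 45 members fell (84.4%, against 27.0% of all 17416 genes tested), 2 rose (29.2% of all genes) and 5 did not pass. The limits together were passed by 27 falling members (60.0%, against 5.90% of all genes) and by no rising member, in edgeR or DESeq2, where 11.6% of all genes rose past them. In KO cells 39 members fell (86.7%, against 28.6%), 2 rose (28.5% of all genes) and 4 did not pass, and 28 fell past both limits (62.2%, against 7.58%) and none rose past them (11.2% of all genes). In both genotypes 36 members fell and 27 fell past both limits, with Fancl the 1 member past them in KO cells alone. All senescent libraries lay below all control libraries for 39 members in WT cells (29.7% of all genes) and 40 in KO cells (30.8%), and above them for 3 in WT (33.4%) and 3 in KO cells (30.8%). The markers of proliferating cells fell too, 7 of 7 in each genotype, with medians on the log2 scale of -2.90 (WT) and -3.29 (KO), and their part in the fall of the members was not tested.

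**Figure D1:**
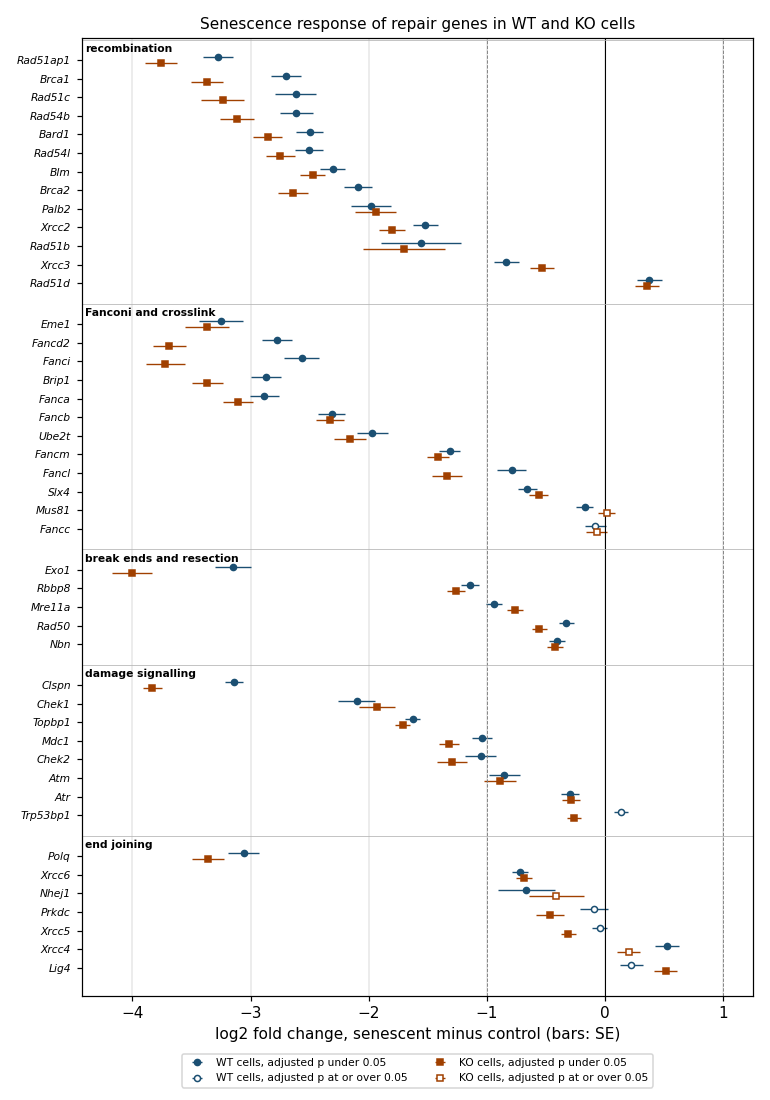
Log2 fold change of each of the 45 members, senescent minus control, in WT (circles) and KO (squares) cells, grouped by role, with bars for the SE and filled symbols for genes that passed at an adjusted p of 0.05. Dashed lines mark a log2 fold change of 1 in either direction; among recombination and Fanconi genes most symbols lie left of the dashed line, and of the end joining genes only Polq does.

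The medians of the role groups lay apart. Over all 45 members the median log2 fold change was -1.52 for WT and -1.70 for KO cells, beside a median of 0.02 over all genes tested in WT cells. Among the 25 recombination and Fanconi genes it was -2.30 in WT and -2.47 in KO cells, with 23 and 22 genes that fell and 19 and 20 that fell past both limits. Among the 7 end joining genes it was -0.09 and -0.41, with 3 and 4 genes that fell and 1, Polq, past both limits. Without Polq the 6 remaining end joining genes ranged from -0.72 to 0.53 in WT and from -0.69 to 0.51 in KO cells. Damage signalling genes lay between, with a median of -1.05 in WT and -1.31 in KO cells, as did the genes for break ends and resection, at -0.94 and -0.76. These medians describe the lists and were not tested against each other.

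**Figure D2:**
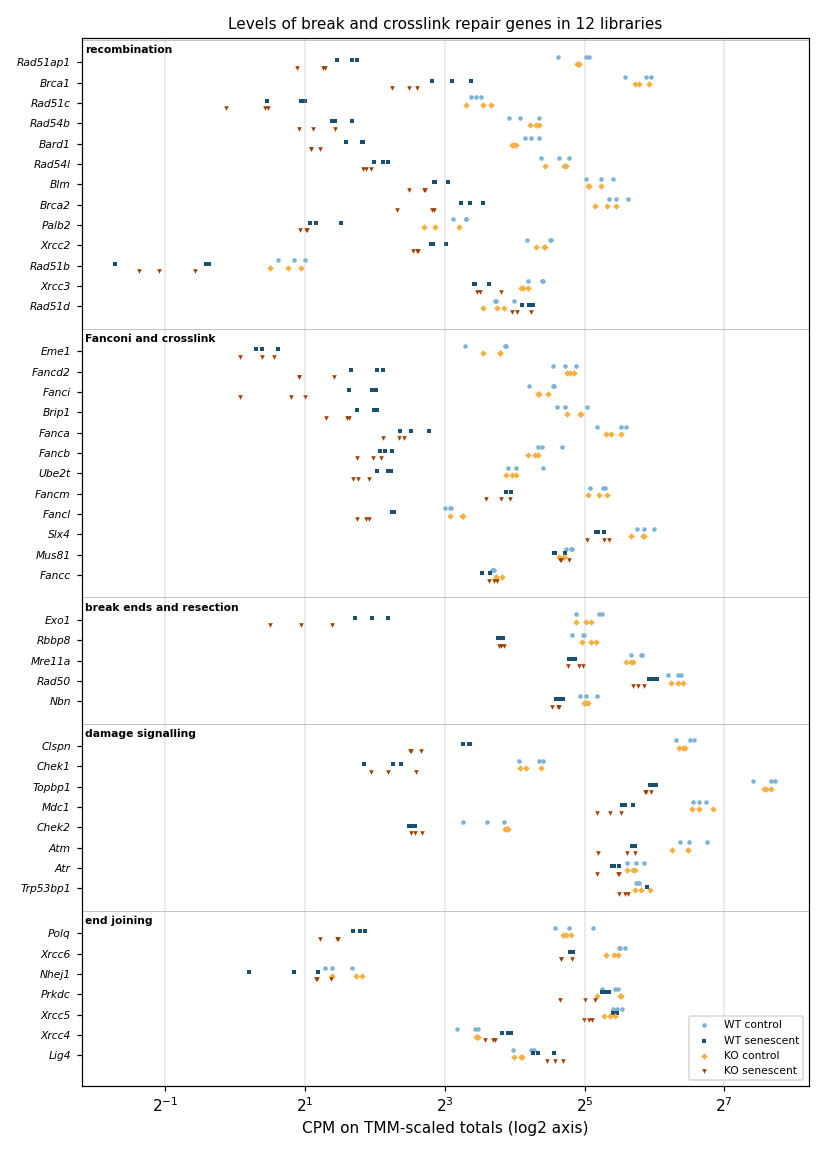
Level of each of the 45 members in all 12 libraries, in CPM on a log2 axis, with 1 symbol for each library and 1 colour and shape for each group. Control libraries of both genotypes sit together at the right of most rows and senescent libraries at the left, while the rows of Fancc, Mus81, Trp53bp1 and most end joining genes show the 4 groups close together.

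Many S-phase genes are known targets of E2F factors, so the RefSeq promoter windows of the members (GRCm38.p6, 250 bases before to 50 bases after the start, with more than 1 window for some genes) were searched on both strands for 6 E2F-type 8-letter words (TTTGGCGC, TTTCGCGC, TTTCCCGC, TTTGGCGG, TTTCGCGG and TTTCCCGG). A window was at hand for 36 of the 45 members. At least 1 word was found for 11 of the 36 (30.6%), against 7.37% of the genes tested and 4.34% of all 27025 genes with a window. The median GC content of the windows was 58.0% for the members, 60.3% for genes tested and 52.8% for all genes. The 11 were Bard1, Brca2, Rad51b and Rad51c among 10 recombination genes with a window and Brip1 among 11 Fanconi genes (9.09%). Chek1, Chek2, Clspn, Mdc1 and Topbp1 were found among 8 signalling genes, and Xrcc6 alone among 6 in end joining. All 11 fell in both genotypes, with a median of -2.09 in WT and -1.93 in KO cells. Of the 25 members with a window but without the words, 20 fell in each genotype, with medians of -0.94 and -1.34. Of all genes tested, 27.0% fell in WT and 28.6% in KO cells. The sets with and without the words differ in role, and a link between the words and the falls was not tested. The words did not mark every deep fall, since the windows of Eme1 (-3.25 in WT and -3.37 in KO cells) and Polq (-3.06 and -3.36) held none. The windows of Brca2 and Clspn, which fell deeply and hold more than 1 such word, are shown with the windows of the Ku partners Xrcc6, which holds such a word, and Xrcc5, which holds none. Capitals mark the matched letters, E2F-type words in the first 3 sequences (a match on the minus strand appears as its reverse complement) and the E-box CACGTG in Xrcc5, the hexamer that Bmal1 with its partner Clock is known to bind.
Brca2 (chr5:150522371-150522670, plus strand): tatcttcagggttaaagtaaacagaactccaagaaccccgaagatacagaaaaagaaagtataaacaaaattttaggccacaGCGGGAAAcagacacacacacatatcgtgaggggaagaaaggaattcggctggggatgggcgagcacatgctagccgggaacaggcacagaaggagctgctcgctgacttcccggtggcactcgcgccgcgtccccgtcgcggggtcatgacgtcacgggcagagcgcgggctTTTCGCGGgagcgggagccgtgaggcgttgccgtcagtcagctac
Clspn (chr4:126556730-126557029, plus strand): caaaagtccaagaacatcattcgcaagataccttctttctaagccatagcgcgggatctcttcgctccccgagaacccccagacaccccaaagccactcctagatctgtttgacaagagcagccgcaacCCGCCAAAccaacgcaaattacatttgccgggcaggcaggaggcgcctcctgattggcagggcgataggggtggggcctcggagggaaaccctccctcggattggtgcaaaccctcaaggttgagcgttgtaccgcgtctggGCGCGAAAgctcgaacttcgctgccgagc
Xrcc6 (chr15:82016119-82016418, plus strand): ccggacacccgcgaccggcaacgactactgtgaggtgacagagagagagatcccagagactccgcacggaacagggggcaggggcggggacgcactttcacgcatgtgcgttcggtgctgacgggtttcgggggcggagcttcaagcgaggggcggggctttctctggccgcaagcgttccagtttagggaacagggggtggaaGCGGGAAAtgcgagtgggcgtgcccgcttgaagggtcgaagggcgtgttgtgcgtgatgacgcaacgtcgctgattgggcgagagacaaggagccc
Xrcc5 (chr1:72307171-72307470, plus strand): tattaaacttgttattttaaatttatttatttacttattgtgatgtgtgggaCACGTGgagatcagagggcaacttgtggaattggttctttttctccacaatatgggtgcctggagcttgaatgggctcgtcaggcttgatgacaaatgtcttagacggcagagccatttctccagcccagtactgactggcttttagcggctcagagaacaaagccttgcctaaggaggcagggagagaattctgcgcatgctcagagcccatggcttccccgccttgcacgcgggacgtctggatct
The E-box was found for 3 of the 36 members with a window, Eme1, Slx4 and Xrcc5 (8.33%, against 11.1% of genes tested and 8.09% of all genes), and the CHR letters TTTGAA for 4 (11.1%, against 14.5% and 20.2%). The AP-1 letters TGACTCA were found in none, against 4.91% of genes tested and 5.95% of all genes. A match is a run of letters and not a site shown to be bound, and an absent match speaks only for these letters in this window.

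Of the 13 recombination genes, 12 fell in both genotypes and 11 of them past both limits. Rad51ap1, which helps the recombinase to pair strands, was at 32.6, 24.5 and 33.5 CPM in the WT control libraries and at 3.20, 3.37 and 2.74 in the WT senescent libraries, and at 30.4, 30.2 and 29.8 in KO control and 2.39, 2.45 and 1.86 in KO senescent libraries. No senescent library came near a control library, and the log2 fold change was -3.28 ± 0.13 (SE, n = 3 per group, edgeR adjusted p = 9.68e-15) in WT and -3.76 ± 0.13 (2.05e-15) in KO cells, the largest falls of the group. Brca1, the ubiquitin ligase subunit that favours resection, was at 58.9, 47.9 and 62.0 CPM in WT control libraries and 7.08, 8.59 and 10.4 in WT senescent libraries, and at 60.5, 55.2 and 52.9 in KO control and 6.06, 5.60 and 4.73 in KO senescent libraries. It was thus 6.50-fold lower in WT and 10.3-fold lower in KO senescent cells. Brca2, the mediator that loads the recombinase, was at 43.6, 40.8 and 49.2 CPM in WT control libraries and 9.39, 10.3 and 11.7 in WT senescent libraries, and at 35.6, 43.7 and 39.8 in KO control and 7.18, 7.02 and 4.96 in KO senescent libraries. The WT fall was -2.09 ± 0.12 (adjusted p = 6.52e-11) and the KO fall -2.64 ± 0.13 (5.33e-12).

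The recombinase paralogs did not move as 1 set. Rad51c, the paralog common to both paralog complexes, was at 10.9, 11.4 and 10.3 CPM in WT control libraries and 2.01, 1.38 and 1.93 in WT senescent libraries, and at 11.7, 12.7 and 9.92 in KO control and 1.39, 1.35 and 0.912 in KO senescent libraries, a fall of 2.62 ± 0.17 in WT and 3.24 ± 0.18 in KO cells on the log2 scale (adjusted p = 3.65e-11 and 2.44e-12). Rad51d, a subunit of the complex that also holds Rad51b, Rad51c and Xrcc2, was at 13.2, 13.3 and 15.9 CPM in WT control libraries and 18.5, 19.3 and 17.2 in WT senescent libraries, and at 11.7, 14.3 and 13.5 in KO control and 18.8, 15.6 and 16.3 in KO senescent libraries. All senescent libraries of Rad51d lay above all control libraries of their genotype, and it was the only member that rose in both genotypes, by 0.38 ± 0.10 (adjusted p = 0.00361) and 0.36 ± 0.10 (0.00544). Xrcc2 fell by 1.52 and 1.80, Rad51b, the lowest of all members, by 1.55 and 1.70, and Xrcc3, the partner of Rad51c in the second complex, by 0.83 and 0.53. The 5 recombination genes not yet given, Bard1, Palb2, Rad54l, Rad54b and the helicase Blm, fell by 1.94 to 3.12 across both genotypes. The exons of Rad54b overlap those of Fsbp on the same strand, so its counts are uncertain.

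In the Fanconi and crosslink group, 11 of 12 genes fell in WT and 10 in KO cells. Eme1, the partner of the structure-specific nuclease Mus81, fell most over the genotypes, from 14.5, 9.81 and 14.7 CPM in WT control to 1.53, 1.31 and 1.23 in WT senescent libraries and from 13.8, 13.9 and 11.7 in KO control to 1.47, 1.31 and 1.05 in KO senescent libraries. On the log2 scale Eme1 changed by -3.25 ± 0.18 (adjusted p = 2.92e-12) in the WT and by -3.37 ± 0.18 (1.69e-12) in the KO cells. Fancd2 and Fanci form the clamp that is ubiquitinated on damaged chromatin. Fancd2 was at 26.5, 23.5 and 29.4 CPM in WT control libraries and 3.16, 4.11 and 4.32 in WT senescent libraries, and at 27.6, 28.8 and 26.8 in KO control and 1.89, 2.66 and 1.89 in KO senescent libraries. Fanci was at 23.6, 18.5 and 23.3 CPM in WT control libraries and 3.10, 3.91 and 4.05 in WT senescent libraries, and at 20.4, 20.1 and 22.3 in KO control and 2.01, 1.74 and 1.05 in KO senescent libraries. Both were therefore lower in senescent than in control libraries without overlap, and lower in KO than in WT senescent libraries without overlap. Fancl, the ubiquitin ligase that modifies the clamp, moved less, from 8.49, 8.47 and 7.99 CPM to 4.76, 4.85 and 4.82 in WT cells and from 8.40, 9.56 and 9.49 to 3.36, 3.79 and 3.68 in KO cells, and passed both limits in KO cells alone.

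Fancc, a subunit of the core complex that holds the ligase, was at 12.8, 12.9 and 13.0 CPM in WT control libraries and 11.6, 12.6 and 12.5 in WT senescent libraries, and at 13.3, 14.1 and 13.4 in KO control and 13.0, 12.4 and 13.4 in KO senescent libraries. It was the 1 member that passed in neither genotype, at -0.08 ± 0.09 (adjusted p = 0.461) and -0.07 ± 0.09 (0.512). Mus81 went from a mean of 27.7 to 24.6 CPM in WT cells, -0.17 on the log2 scale, and from 25.6 to 25.9 in KO cells, where it did not pass. The WT call of Mus81 was lost with library totals in place of TMM scaling, without the filter on low counts, with a replicate block and when any 1 of 8 libraries was left out. The helicases Brip1 and Fancm, the core subunits Fanca and Fancb, the conjugating enzyme Ube2t and the nuclease scaffold Slx4 fell in both genotypes, Brip1 by 2.87 and 3.37 and Slx4 by 0.66 and 0.56.

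All 5 genes for break ends and resection fell in both genotypes. Exo1, the nuclease of long-range resection, was at 38.1, 29.3 and 36.8 CPM in WT control libraries and 4.56, 3.30 and 3.90 in WT senescent libraries, and at 34.2, 29.3 and 32.5 in KO control and 1.93, 2.62 and 1.42 in KO senescent libraries. The KO fall of Exo1, -4.01 ± 0.17 (adjusted p = 1.90e-12), was the largest of any member, and its WT fall was -3.15 ± 0.15 (1.39e-11). Rbbp8 (CtIP), which starts resection with MRN, was at 31.7, 28.3 and 31.9 CPM in WT control libraries and 13.8, 13.6 and 14.2 in WT senescent libraries, and at 36.0, 31.1 and 34.0 in KO control and 14.5, 13.9 and 13.7 in KO senescent libraries, a fall of 1.14 ± 0.08 and 1.26 ± 0.08 (adjusted p = 7.51e-11 and 1.19e-11). The 3 MRN genes stayed closer to their control levels. Mre11a, the nuclease, went from 56.4, 50.8 and 56.0 CPM to 29.0, 27.5 and 28.5 in WT cells and from 51.9, 50.6 and 48.2 to 30.2, 27.2 and 31.4 in KO cells, 1.92-fold and 1.70-fold lower. Nbn, which brings the complex to the kinase Atm, went from 32.5, 30.7 and 36.1 CPM to 25.0, 25.9 and 24.0 in WT cells and from 33.1, 31.9 and 32.4 to 23.3, 24.9 and 24.5 in KO cells, 1.32-fold and 1.34-fold lower. Rad50, the coiled-coil ATPase, fell by 0.33 and 0.56 on the log2 scale.

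Among the damage signalling genes the mediators of the replication checkpoint fell most. Clspn (claspin), which presents the kinase Chek1 to Atr at stalled forks, was at 91.3, 79.1 and 94.7 CPM in WT control libraries and 9.59, 10.3 and 10.1 in WT senescent libraries, and at 81.8, 86.2 and 84.5 in KO control and 6.33, 5.74 and 5.67 in KO senescent libraries. The change was -3.14 ± 0.08 in WT (adjusted p = 1.06e-17) and -3.83 ± 0.08 in KO cells (1.56e-18). Chek1 itself was at 20.3, 16.7 and 21.3 CPM in WT control libraries and 3.61, 4.81 and 5.21 in WT senescent libraries, and at 20.7, 16.8 and 17.9 in KO control and 3.86, 4.57 and 6.05 in KO senescent libraries, 4.29-fold and 3.81-fold lower. Topbp1, the activator of Atr, was at 203, 171 and 212 CPM in WT control libraries and 64.9, 63.7 and 61.1 in WT senescent libraries, and at 204, 190 and 193 in KO control and 61.7, 58.7 and 58.3 in KO senescent libraries, 3.09-fold and 3.28-fold lower. The Atm substrate kinase Chek2 and the chromatin adaptor Mdc1 fell by 1.04 to 1.32 across both genotypes.

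The apical kinases moved less. Atm, which answers to breaks, was at 90.6, 82.1 and 108 CPM in WT control libraries and 51.3, 51.3 and 52.7 in WT senescent libraries, and at 76.2, 89.4 and 89.4 in KO control and 52.7, 48.6 and 36.7 in KO senescent libraries, a fall of 0.85 ± 0.13 (adjusted p = 0.000217) and 0.89 ± 0.13 (0.000159). Atr, which answers to single-stranded DNA, was at 48.9, 53.3 and 57.7 CPM in WT control libraries and 45.2, 42.0 and 43.0 in WT senescent libraries, and at 48.5, 52.7 and 51.7 in KO control and 44.6, 44.8 and 36.2 in KO senescent libraries. Its fall of 0.30 ± 0.08 (adjusted p = 0.00267) and 0.29 ± 0.08 (0.00346) was not called in either genotype with library totals in place of TMM scaling, and its exons overlap 1 other gene on the same strand and 2 on the opposite strand. Trp53bp1 (53BP1), which shields ends from resection and so opposes Brca1, was at 53.3, 54.2 and 54.7 CPM in WT control libraries and 59.2, 59.4 and 59.2 in WT senescent libraries. In KO cells it was at 52.8, 56.1 and 61.0 in control and 47.6, 49.4 and 45 in senescent libraries, a fall of 0.26 ± 0.06 (adjusted p = 0.000852), while the WT difference of 0.13 ± 0.06 did not pass (0.0619). The KO call was lost with library totals (-0.10), under which the WT difference passed (0.30).

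The end joining genes held closest to control levels, with Polq as the exception. Polq, the polymerase of the microhomology-mediated route that works on resected ends, was at 27.5, 23.8 and 34.9 CPM in WT control libraries and 3.47, 3.23 and 3.63 in WT senescent libraries, and at 25.8, 28.0 and 26.7 in KO control and 2.74, 2.77 and 2.33 in KO senescent libraries. It fell 8.33-fold in WT (-3.06 ± 0.13 on the log2 scale, adjusted p = 3.00e-14) and 10.3-fold in KO cells (-3.36 ± 0.13, 1.01e-14), within the range of the recombination genes. The Ku subunits parted. Xrcc6 (Ku70) went from 45.3, 44.9 and 47.8 CPM to 28.5, 27.7 and 27.7 in WT cells and from 44.8, 42.9 and 39.6 to 28.4, 25.4 and 25.5 in KO cells, a fall of 0.72 ± 0.07 (adjusted p = 9.06e-09) and 0.69 ± 0.07 (1.77e-08). Xrcc5 (Ku80) was at 44.3, 42.5 and 46.5 CPM in WT control libraries and 42.6, 44.3 and 42.3 in WT senescent libraries, which overlapped, at -0.04 ± 0.06 (adjusted p = 0.578). In KO cells Xrcc5 fell from 43.4, 38.7 and 41.4 to 34.4, 31.7 and 33.5, by 0.31 ± 0.06 (adjusted p = 0.000292).

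Prkdc was at 43.4, 38.2 and 44.4 CPM in WT control libraries and 39.2, 37.9 and 40.8 in WT senescent libraries, which overlapped (-0.09 ± 0.12, adjusted p = 0.524). In KO cells it fell from 36.1, 45.6 and 46.2 to 35.6, 32.1 and 25.1, by 0.47 ± 0.12 (adjusted p = 0.00388), with libraries that were widely spread. The ligase and its cofactor were the members that rose beside Rad51d. Lig4 was at 19.4, 15.8 and 18.8 CPM in WT control libraries and 23.6, 19.1 and 20.1 in WT senescent libraries, and at 15.8, 17.2 and 17.1 in KO control and 22.0, 23.9 and 25.7 in KO senescent libraries. It rose in KO cells by 0.51 ± 0.10 (adjusted p = 0.000104), and the WT difference of 0.22 ± 0.10 did not pass (0.0568), although it did with library totals, with a replicate block and without WT control 1 or WT senescent 2. Xrcc4 was at 9.05, 11.2 and 10.8 CPM in WT control libraries and 15.0, 14.1 and 15.5 in WT senescent libraries, and at 11.0, 11.0 and 11.1 in KO control and 13.0, 13.2 and 11.9 in KO senescent libraries. It rose in WT cells by 0.53 ± 0.10 (adjusted p = 0.000113), and the KO difference of 0.20 ± 0.10 did not pass (0.0891). The difference between the genotypes' responses did not pass for Lig4 (adjusted p = 0.142) or Xrcc4 (0.108). Nhej1 (XLF), the lowest of the group in CPM, went from 2.45, 2.61 and 3.21 to 1.80, 1.14 and 2.28 in WT cells and from 3.32, 2.63 and 3.52 to 2.24, 2.59 and 2.26 in KO cells. Its WT fall of 0.67 ± 0.24 (adjusted p = 0.0241) was lost with library totals (0.0840), without WT control 3 (0.0837) and without WT senescent 2 (0.149), and the KO difference did not pass (0.138).

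The order of the members by level per length changed with these falls. Per kilobase of exon, Topbp1 (17.4) and Xrcc5 (17.4 CPM per kb) led in WT control cells, followed by Rad50 (14.7), Mdc1 (13.5), Nbn (13.1), Clspn (12.3) and Xrcc6 (10.3). In WT senescent cells Xrcc5 (16.9), Rad50 (11.7) and Nbn (9.86) led, followed by Mus81 (6.90). Exo1, Rad51c, Polq, Palb2 and Rad51b closed that order, each at 0.465 CPM per kb or less. In KO senescent cells the same 4 genes led, Xrcc5 at 13.0, Rad50 at 10.2, Nbn at 9.57 and Mus81 at 7.27 CPM per kb. These orders rest on the division by exon length. Without it, the means of Topbp1 (63.2 CPM), Rad50 (63.1) and Trp53bp1 (59.3) lay above that of Xrcc5 (43.1) in WT senescent cells.

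The ratios of several partner transcripts moved with these falls, as the plot of log2 ratios of CPM per kb shows, and those of others stayed close. The pairs were chosen after the values were seen, and the ratios are descriptions without a test. The ratio of Mus81 to Eme1 was 0.51 to 1.14 in WT control libraries and 3.74 to 3.89 in WT senescent libraries, and 0.54 to 0.71 and 3.72 to 4.35 in the KO libraries. That of Rad51d to Rad51c moved from 0.45 to 0.86 up to 3.39 to 4.04 in WT and from 0.24 to 0.68 up to 3.78 to 4.40 in KO libraries. Per kb of exon, Trp53bp1 lay below Brca1 in every control library and above it in every senescent library, at -0.91 to -0.55 against 1.78 to 2.33 in WT cells and -0.93 to -0.53 against 2.24 to 2.52 in KO cells. The order in control cells rests on the division by exon length. Without it Trp53bp1 lay above Brca1 in WT control 2, KO control 2 and KO control 3. Within the core complex Fancc passed Fanca, from -1.82 to -1.42 up to 0.83 to 1.36 in WT cells and from -1.72 to -1.48 up to 1.29 to 1.70 in KO cells. The Ku ratio, Xrcc5 to Xrcc6, moved from 0.73 to 0.78 up to 1.39 to 1.49 in WT cells and from 0.66 to 0.87 up to 1.09 to 1.21 in KO cells. For Brca1 to Bard1, the subunits of 1 ligase, the WT ratios overlapped, at 0.84 to 1.05 in control and 0.65 to 0.96 in senescent libraries, and the KO ratios did not, at 1.17 to 1.34 and 0.56 to 0.80. The ratio of Fancd2 to Fanci was -0.30 to -0.12 in WT control and -0.43 to -0.37 in WT senescent libraries, which did not overlap, and -0.19 to 0.06 and -0.54 to 0.39 in the KO libraries, which did. Those of Nbn to Rad50 overlapped in both genotypes and lay between -0.36 and 0.01 in all libraries.

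**Figure D3:**
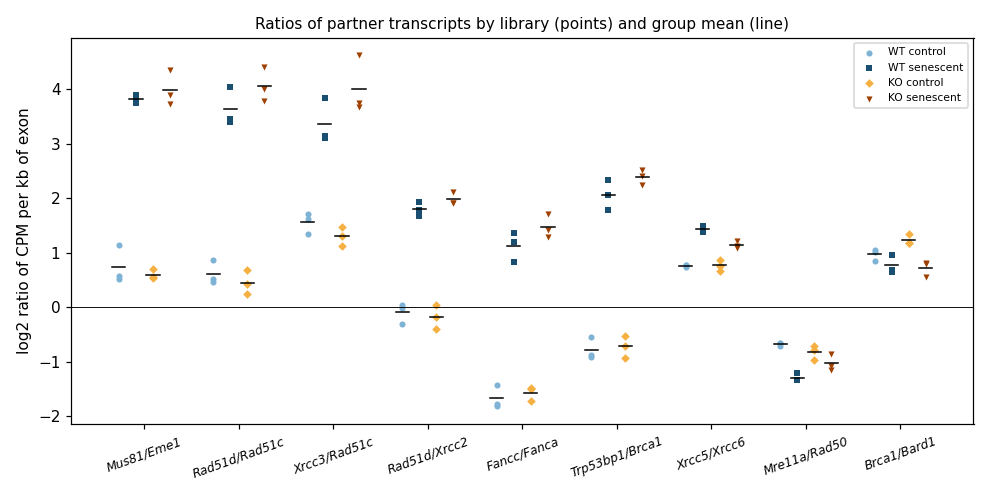
Log2 ratios of CPM per kb of exon for 9 pairs of partner genes in each library (points) with the mean of each group (line). Ratios of Mus81 to Eme1, Rad51d to Rad51c and Trp53bp1 to Brca1 are separated between control and senescent libraries of both genotypes, while those of Brca1 to Bard1 overlap in WT cells and are separated in KO cells.

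To ask whether loss of Bmal1 alters these responses, the KO change was compared with the WT change (the interaction), and KO with WT cells in each state. In control cells no member was found to differ. None of the 45 passed between KO and WT control cells by edgeR or by DESeq2, 2 had an unadjusted p under 0.05, and the differences lay between -0.31 and 0.30, where 8.07% of all genes tested were higher and 4.96% lower in KO cells (1.36% and 1.18% past both limits). In senescent cells 13 members were lower in KO than in WT cells (28.9%, against 11.8% of all genes) and none was higher (11.9% of all genes), with 21 members lower and 0 higher at an unadjusted p under 0.05. The response itself was lower in KO cells for 9 members (20.0%, against 11.7% of all genes) and higher for none (9.24%), with 18 members lower and 2 higher at an unadjusted p under 0.05. DESeq2 also called no member higher in either comparison. At an unadjusted p under 0.05, in either direction, 4613 of all 17416 genes tested differed between control cells. For senescent cells the number was 6057, and for the response 5634. Of all 45 responses 34 were below 0 and 11 above, with a median of -0.22, beside a median of -0.03 over all genes tested. The proliferation markers moved the same way, with 4 of 7 that passed and a median of -0.52, and their part was not tested.

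**Figure D4:**
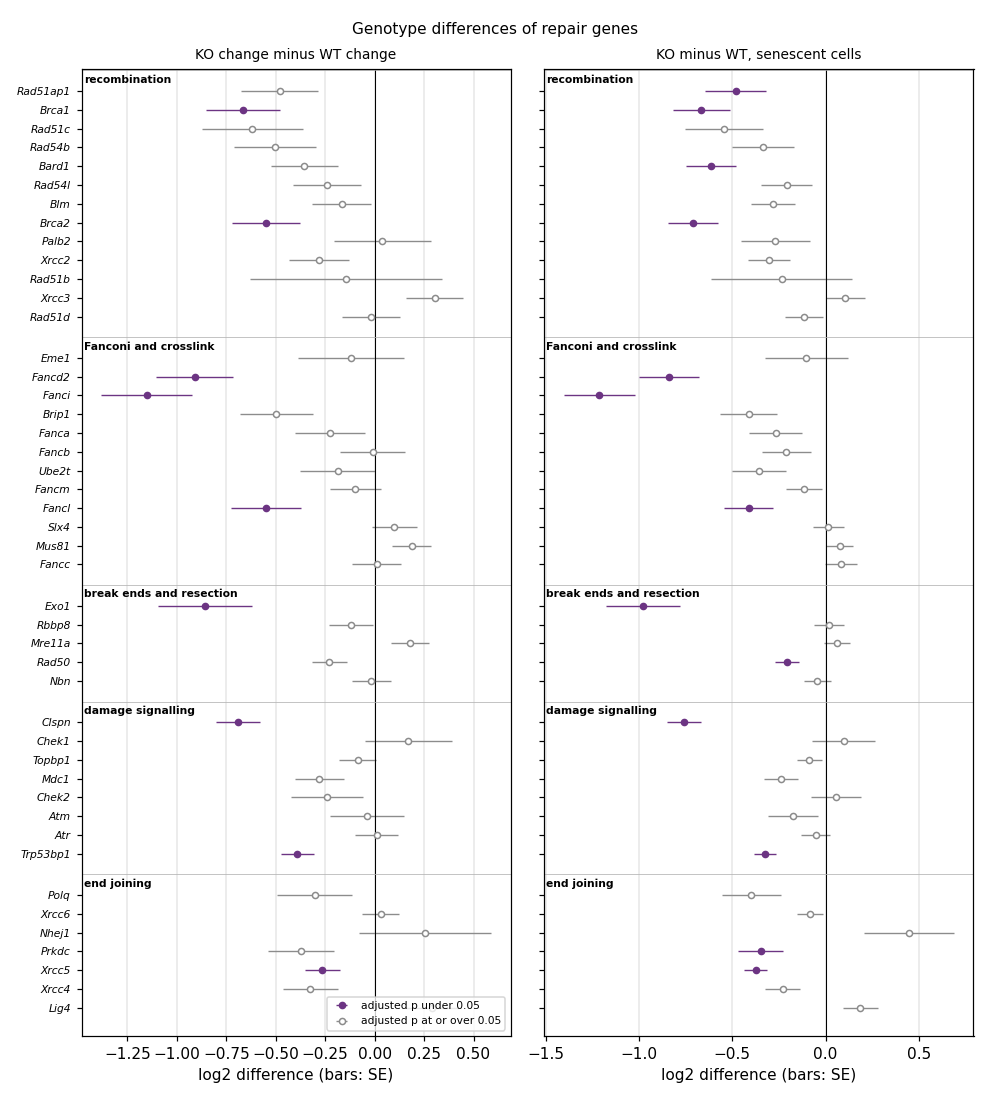
Left, the interaction of each member (KO log2 change minus WT log2 change); right, the log2 difference between KO and WT senescent cells. Bars are SE and filled symbols passed at an adjusted p of 0.05; all filled symbols lie below 0 in both panels, 9 at the left and 13 at the right.

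The clamp genes differed most. Fanci (ENSMUSG00000039187, chr7:79391929-79450264, plus strand, GRCm38 in GENCODE) fell 13.2-fold in KO against 5.93-fold in WT cells, an interaction of -1.15 ± 0.23 (edgeR adjusted p = 0.00143), and was 2.32-fold lower in KO than WT senescent cells, the 1 member past both limits in each comparison (2.51% and 2.19% of all genes were lower past both limits, 1.15% and 1.29% higher). Without KO senescent 3, its lowest library, the interaction of Fanci was -0.92 and still passed (0.00468). Fancd2 (ENSMUSG00000034023, chr6:113531682-113597017, plus strand) fell 12.9-fold against 6.85-fold, an interaction of -0.91 ± 0.19 (0.00208). Clspn (ENSMUSG00000042489), with an interaction of -0.69 ± 0.11, had the lowest adjusted p of the members (0.000212). The interaction of Trp53bp1 was -0.39 ± 0.08 (0.00233). These 4 passed under every alternative that was run. Exo1 (-0.86 ± 0.24, adjusted p = 0.0161) did not pass without WT senescent 1 (0.0513), and Brca1 (-0.67 ± 0.19, 0.0200) did not without KO senescent 3 (0.0650). Brca2 (-0.55 ± 0.17, 0.0320), Fancl (-0.55 ± 0.18, 0.0328) and Xrcc5 (-0.27 ± 0.09, 0.0397) lost the call under several single omissions, at an adjusted p of up to 0.0925, 0.0860 and 0.101.

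The other members lower in KO than WT senescent cells were Bard1 (-0.62), Rad51ap1 (-0.48), Prkdc (-0.35) and Rad50 (-0.21), and all 9 members with a lower response were lower there too. Of the 25 recombination and Fanconi genes 7 passed in this comparison, and of the 7 end joining genes 2 did, Xrcc5 and Prkdc. Among all genes tested 11.8% were lower. The groups differ in size, and their counts were not tested against each other. The calls of Rad51ap1, Fancl, Rad50 and Prkdc were each lost in some alternative, Prkdc when any 1 of 10 libraries was left out. Among the KO senescent libraries, replicate 3 was the lowest for 24 of the 45 members, and among the WT control libraries replicate 2 was the lowest for 35.

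A further 76 repair genes outside the list, from the same roles, were counted for comparison. In WT cells 49 fell, 9 rose and 18 did not pass, with 21 that fell past both limits and a median of -0.39. Of all genes tested in WT cells 27.0% fell, 29.2% rose and 5.90% fell past both limits. In KO cells 49 fell, 7 rose and 20 did not pass, with 22 past both limits and a median of -0.41. There the shares of all genes were 28.6%, 28.5% and 7.58%. WT medians were -0.77 for recombination (11 of 23 past both limits), -0.30 for Fanconi (3 of 18) and 0.03 for end joining (2 of 14). The members of these roles stood at -2.30, -2.14 and -0.09. KO medians of the further genes were -0.97 (11), -0.44 (4) and -0.23 (2). The further damage signalling genes had medians of -0.56 in WT and -0.34 in KO cells (4 of 13 past both limits in each). Those for break ends and resection had medians of -0.26 and -0.24 (1 of 8 in each). In WT cells, unlike among the members, the median of damage signalling thus lay below that of Fanconi genes. The changes of the 76 genes ranged from -2.78 to 0.90 in WT and from -3.35 to 0.51 in KO cells. Among the largest falls were Parpbp (-2.76 ± 0.14 in WT and -3.35 ± 0.15 in KO cells) and the resolvase Gen1 (-2.65 ± 0.14 and -3.28 ± 0.15). Of those that rose, Eme2, the other partner of Mus81, moved by 0.61 ± 0.09 and 0.27 ± 0.09 and the end joining factor Paxx by 0.47 ± 0.12 and 0.39 ± 0.12, all past an adjusted p of 0.05.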

How the data were processed

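Poly(A) RNA from 12 samples was sequenced. The authors deposited raw read counts per Ensembl gene in 2 tables, 1 per genotype, made with bcl2fastq (2.17), Trimmomatic (0.36), STAR (2.5.2b, GRCm38) and featureCounts, counting uniquely aligned reads in exons; the strand setting and annotation release are not given in the sources used here, so reads of overlapping antisense genes cannot be told apart. All 12 columns were used. Groups came from the labels. The members and lists were chosen with earlier results of these data known. Genes of low count were removed (filterByExpr), and 17416 genes were scaled by TMM and tested with edgeR (4.0.16, R 4.3.3) by the quasi-likelihood F-test with 1 mean per group, Benjamini-Hochberg adjusted over all genes tested; SEs were derived from the F statistic. CPM are counts per 1000000 of the scaled totals, and CPM per kb divides by exon length. The study's thresholds (adjusted p of 0.05, log2 fold change of 1) were kept. The script was tested on simulated data. Named in full were all end joining genes, the 3 deepest and the highest of each other role, members that rose or whose interaction passed with a size over 0.5, those past both limits between genotypes, and Brca1, Brca2, Fancd2, Atm, Atr and Trp53bp1. Alternatives were DESeq2 (1.42.0), other scalings and filters, a replicate block, only the groups compared, and each library left out.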

Additional observations from a re-analysis of the deposited data

Results flagged for a closer look

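The senescence response differed between genotypes, by the interaction term of the edgeR fit, for 9 members, and in each the KO change lay below the WT change. These were 20.0% of the members, against 11.7% of all genes tested with a lower response. On the log2 scale the difference was -1.15 for Fanci, -0.91 for Fancd2, -0.86 for Exo1, -0.69 for Clspn, -0.67 for Brca1, -0.55 for Brca2, -0.55 for Fancl, -0.39 for Trp53bp1 and -0.27 for Xrcc5. Fanci, Fancd2, Clspn and Trp53bp1 passed under every alternative run, and the other 5 lost the call in some. Summed proliferation markers were at 228 to 248 CPM in WT senescent and 170.5 to 195 in KO senescent libraries, and their part in these differences was not tested.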

How the results depend on the processing

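The counts of members that fell, passed or past both limits, stayed within 1.5 times their main values in both senescence comparisons under every alternative run. With library totals in place of TMM scaling the median of all genes moved to 0.19 in WT and 0.15 in KO cells (the share of rising genes among those past both limits went from 66.2% to 76.8% in WT cells), 4 members rose in WT and 4 in KO cells, 21 were lower in KO than WT senescent cells with 2 past both limits, and values near 0 changed sign in WT cells for Fancc (0.0891), Mus81 (0.000188), Xrcc5 (0.126) and Prkdc (0.0756) and in KO cells for Fancc (0.0835). With a log2 limit of 0.5, 1 member rose past both limits in each genotype, 7 had a lower response and 7 were lower in KO than WT senescent cells. With single libraries left out, responses lower past both limits numbered 0 (without KO senescent 3) to 3 (without KO senescent 2), with 2 without WT senescent 1. Members lower past both limits in KO than in WT senescent cells likewise numbered 0 (without KO senescent 3) to 3 (without KO senescent 2), with 2 without WT senescent 2, higher responses 0 to 1 (without WT control 2), members higher in KO than in WT control cells 0 to 1 (Chek2, without WT control 1), and Mus81 in KO cells ranged from -0.0314 (without KO senescent 3) to 0.0512, with -0.0134 without KO control 3. The cause of these changes was not tested. Replicate numbers are shared by the labels, but same-numbered control and senescent libraries deviated together with correlations of only 0.015, 0.043 and 0.108 in WT and -0.125, 0.045 and -0.095 in KO cells, so the numbers were not taken as pairs. A replicate block left 37 members lower in WT cells (without Mus81, adjusted p = 0.0825), added Lig4 (0.0318) and, for the response, dropped Fancl (0.0614) and Xrcc5 (0.0568) and added Mdc1 (0.0344), and between senescent cells dropped Prkdc (0.0960) and added Xrcc2 (0.0429) and Brip1 (0.0487). Rad51b, at 9 counts or more, is limited most by depth.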
